A study of Mus musculus with 8 samples.

Results

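The 10 genes described here are genes of the erythroid, mast cell and basophil lines: Gata1, Klf1, Hbb-bt, Hbb-bs, Car1, Car2, Gypc, Cpa3, Mcpt8 and Slc18a2. They were chosen by symbol out of 53700 genes in the deposited count table, and all 10 were found and passed the filter on low counts that left 12132 genes for testing. The study sequenced polyadenylated RNA from pooled, sorted mouse marrow cells of 2 types and 4 genotypes, giving 8 libraries. Haematopoietic stem cells (HSC) were sorted as CD48- CD150+ cells and multipotent progenitors (MPP) as CD48+ CD150- cells, both inside the LSK gate of immature marrow cells. The labels give the 4 donor genotypes as Nfat5 +/+ Vav-Cre (WT), Nfat5 fl/fl Vav-Cre (N5), IFNAR1-deficient (IFNAR), and both defects together (DKO). Vav-Cre acts in blood-forming cells, so Nfat5 was targeted in the donor's blood lines and not in the recipient, and the label of the IFNAR donors does not mention Cre. All groups share the same history: CD45.2 donor marrow was placed into irradiated wild-type CD45.1 mice, and CD45.2 cells were sorted 13 weeks later, with 5 recipients per pool. No group was replicated, and the labels do not say that the HSC and MPP of a genotype came from the same mice.

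Red cells, megakaryocytes, mast cells, basophils and eosinophils share the transcription factor GATA1, which works with GATA2, TAL1 and LMO2 in their early progenitors. In the erythroid line KLF1 then acts on CACCC sites of the adult beta globin genes, and globin, carbonic anhydrase and membrane proteins accumulate. In mast cells and basophils the same early factors precede granule proteases and the storage of histamine. HSC and MPP lie upstream of all these lines.

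Total counts were 28871700 to 47206000 per library, and 13510 to 14781 genes had a count. Levels are CPM (counts scaled to a common library size) after TMM scaling, and 10 CPM stood for at least 285 counts. The libraries were amplified by PCR without molecular identifiers, so counts are not independent molecules, and any interval or floor covers counting error only. A count of 0 allows up to 3 counts, which is 0.0633 to 0.105 CPM. The sorted identities fitted their markers: 8 of 8 HSC markers had a higher mean in HSC and 5 of 5 MPP markers a lower one. The genotype labels could not be checked from transcripts. Here and below, 4 values of a cell type follow the order WT, N5, IFNAR, DKO of the labels. Nfat5 was at 33.2, 22.7, 3.12 and 35.5 CPM in HSC, and at 5.59, 7.69, 0.193 and 11.5 CPM in the MPP libraries. Ifnar1 was at 122, 126, 113 and 35.1 CPM in HSC and at 37.2, 87.9, 43.8 and 125 CPM in MPP. Neither transcript followed its label, and a whole-gene count need not show a deletion of part of a gene, so genotypes are named below as labels only.

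The erythroid, mast cell and basophil genes did not all lie on one side. In HSC, 4 genes were higher with no overlap between the 4 HSC and the 4 MPP libraries: Gata1, Hbb-bt, Car2 and Slc18a2. In MPP, Car1 and Cpa3 were higher with no overlap, and the groups overlapped for Klf1, Hbb-bs, Gypc and Mcpt8. Across all 12132 genes, 574 (4.73%) had all 4 HSC libraries higher and 686 (5.65%) had all 4 lower. edgeR's quasi-likelihood test with genotype as a block called 0 of the 10 genes at an adjusted p under 0.05, against 2 of all genes (0.0165%). At an unadjusted p under 0.05 it gave 6 of the 10, against 10.1% of all genes. DESeq2 called 8 of the 10, against 15.5%, and limma-voom 2 of the 10, against 1.29%. The median log2 difference between HSC and MPP was 0.87 for the 10 genes and -0.11 for all genes, and the median absolute difference was 2.90 and 0.57. The pools are bulk samples, so fewer cells of a type and less RNA per cell cannot be told apart in any of these levels.

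**Figure D1:**
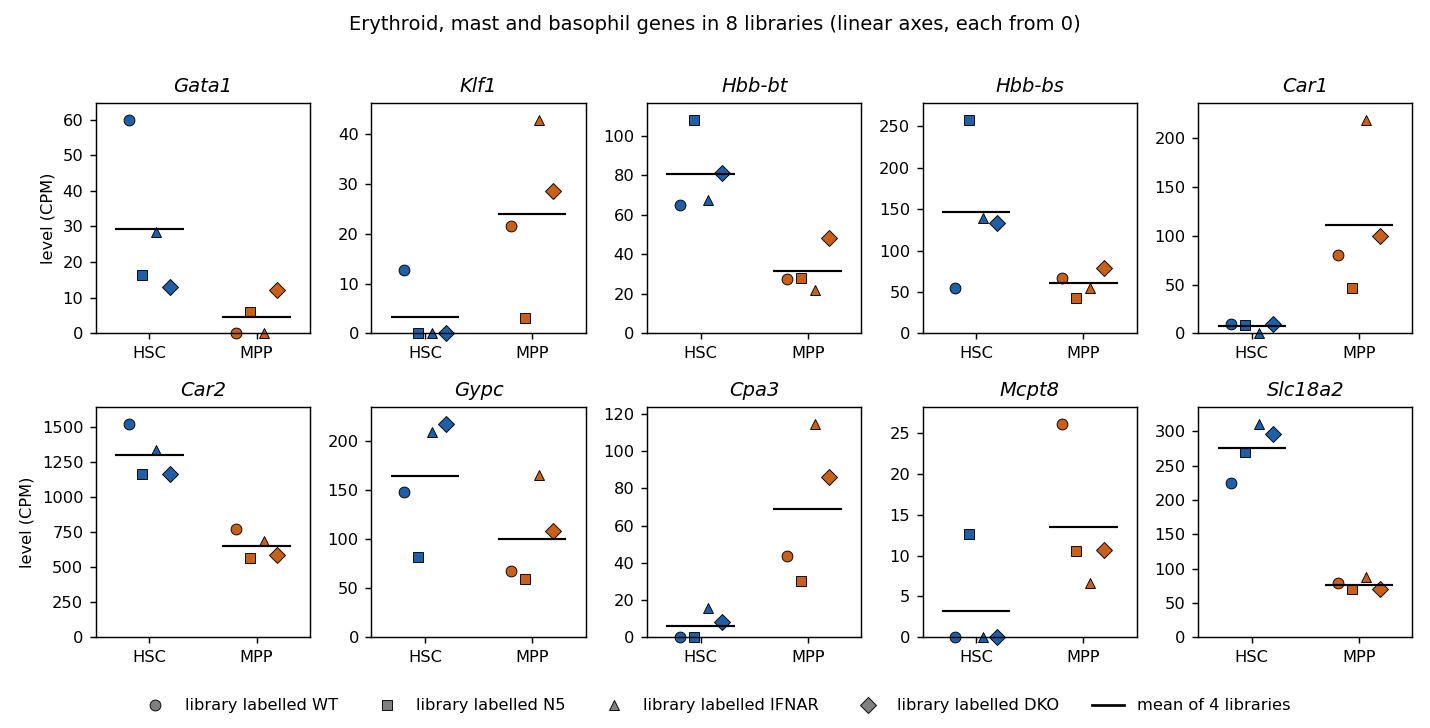
Level of each of the 10 genes in CPM (vertical axis, linear, from 0) in HSC and MPP (horizontal axis). Each point is 1 library, its shape gives the genotype label, and the line is the mean of 4 libraries. Slc18a2 and Car2 form compact, separate groups, while Klf1, Cpa3 and Mcpt8 sit at or near 0 in 2 or more of the HSC libraries.

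Gata1, the shared factor of the erythroid, megakaryocyte and mast cell lines, was at 59.9, 16.4, 28.4 and 13.0 CPM in HSC. In MPP it was at 0, 5.94, 0 and 12.3 CPM. Every HSC library was above every MPP library, although the HSC library labelled DKO lay only just above its MPP partner. The means were 29.4 ± 21.4 CPM in HSC and 4.56 ± 5.87 CPM in MPP (SD, n = 4), a 6.46-fold difference. The edgeR estimate was a log2 difference of 5.98 with an SE of 4.72 (adjusted p = 0.795). Each edgeR SE here is the absolute log2 difference divided by the root of the test's F statistic. It is therefore no measure of spread separate from the p-value. DESeq2 gave 6.61 (adjusted p = 0.00747). The zeros stood on 0 counts in the MPP libraries labelled WT and IFNAR, while the HSC library labelled WT had 2067 counts.

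Klf1, the erythroid factor of the beta globin promoter, had the higher mean in MPP. It was at 12.7, 0.0652, 0 and 0 CPM in HSC and at 21.5, 3.09, 42.9 and 28.5 CPM in MPP. MPP was higher within each of the 4 genotype labels, but the MPP library labelled N5 lay below the HSC library labelled WT. The means were 3.20 ± 6.35 CPM in HSC and 24.0 ± 16.5 CPM in MPP (SD, n = 4). The edgeR log2 difference was -8.05 with an SE of 3.79 (adjusted p = 0.580), and DESeq2 gave -8.51 (adjusted p = 0.000107). Zeros were frequent at such levels: of the 2214 genes with a mean of 1 to 10 CPM in HSC, 58.0% had at least 1 HSC library at 0 and 29.2% at least 2. In MPP, where Gata1 averaged 1 to 10 CPM, 44.6% of genes in that range had at least 1 library at 0. At least 2 MPP libraries were at 0 for 16% of them, Gata1 included.

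The window of 250 bases before the RefSeq start of Klf1 (GRCm38.p6, chr8:84901732-84901981, plus strand) is shown because it holds letters of both kinds of factor. Capitals mark each match, on either strand, to the common GATA forms (AGATAA, and TGATAA as the second) and to the KLF form CACCC.
Klf1: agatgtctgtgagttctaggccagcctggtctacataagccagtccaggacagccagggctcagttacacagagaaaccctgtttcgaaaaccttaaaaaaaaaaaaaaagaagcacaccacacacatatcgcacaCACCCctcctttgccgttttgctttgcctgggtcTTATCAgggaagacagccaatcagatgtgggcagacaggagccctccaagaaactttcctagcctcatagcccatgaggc
TGATAA lies on the reverse strand, with its outer base 80 bases before the start, and CACCC lies 114 bases before it. Of all 32851 RefSeq windows of this length, 9.99% hold AGATAA, 7.94% hold TGATAA, 16.6% hold either, 52% hold CACCC, and 7.11% hold a match of both kinds. No match of either GATA form overlaps one of the KLF form in this window. A match is a description of letters, and no binding was measured. The matching window of Gata1 has 0 matches to either GATA form and 2 to CACCC. RefSeq windows were matched for 7 of the 9 genes searched; Car1 and Car2 were not matched.

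Most of the other erythroid transcription factors and cofactors had a positive log2 difference, as Gata1 did. All 14 genes of that list were measured; without Gata1 and Klf1 themselves, 10 had a positive and 2 a negative log2 difference between HSC and MPP, with a median of 0.47. None was called by edgeR, and 2 of the 14 had an unadjusted p under 0.05, which is near the share of 10.1% over all genes. Gfi1b, a repressor needed for the erythroid and megakaryocyte lines, was at 134 ± 58.1 CPM in HSC and 42.9 ± 23.1 CPM in MPP (SD, n = 4), with no overlap. Nfe2, which acts on globin and platelet genes, was at 656 ± 70.8 CPM in HSC and 404 ± 73.1 CPM in MPP, also with no overlap. Sox6 (46.0 ± 21.7 against 23.8 ± 18.3 CPM) and Ldb1 (38.8 ± 21.7 against 19.4 ± 12.2 CPM) overlapped between the groups.

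The adult beta globin genes Hbb-bt and Hbb-bs both had a higher mean in HSC. Hbb-bt was at 65.2, 108, 67.7 and 80.9 CPM in HSC, and at 27.6, 27.9, 21.9 and 48.2 CPM in MPP. Every HSC library was above every MPP library, with means of 80.4 ± 19.6 and 31.4 ± 11.5 CPM (SD, n = 4), a 2.56-fold difference. The edgeR log2 difference was 1.39 with an SE of 0.36 (adjusted p = 0.326), and DESeq2 gave 1.42 (adjusted p = 0.000161). Hbb-bs was at 55.3, 258, 140 and 134 CPM in HSC and at 66.3, 42.2, 55.1 and 78.5 CPM in MPP. The HSC library labelled WT lay within the range of the MPP libraries, and the HSC library labelled N5 was the highest of all. The Hbb-bs log2 difference was 1.11 with an SE of 0.51 (adjusted p = 0.567, edgeR).

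The split between these genes is uncertain, because they are near-identical copies. Of the 50-base windows of the Hbb-bt transcript, 58.3% also occur in the Hbb-bs transcript, and 65.8% of those of Hbb-bs occur in Hbb-bt (longest coding transcripts of GENCODE M21). The ratio of Hbb-bs to Hbb-bt was 0.849, 2.39, 2.06 and 1.65 in the 4 HSC libraries and 2.40, 1.51, 2.52 and 1.63 in MPP. Their sum, which does not depend on the split, was 120, 366, 207 and 215 CPM in HSC and 93.9, 70.1, 77.0 and 127 CPM in MPP. The sum overlapped through the HSC library labelled WT and the MPP library labelled DKO, so the clean separation of Hbb-bt alone was not kept. Counted as 1 feature, the log2 difference was 1.23 (edgeR, adjusted p = 0.385).

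The upstream windows of the beta globin pair are shown to compare these copies outside the transcript (GRCm38.p6, both on the minus strand, chr7:103813924-103814173 for Hbb-bt and chr7:103827929-103828178 for Hbb-bs). Capitals mark matches as above.
Hbb-bt: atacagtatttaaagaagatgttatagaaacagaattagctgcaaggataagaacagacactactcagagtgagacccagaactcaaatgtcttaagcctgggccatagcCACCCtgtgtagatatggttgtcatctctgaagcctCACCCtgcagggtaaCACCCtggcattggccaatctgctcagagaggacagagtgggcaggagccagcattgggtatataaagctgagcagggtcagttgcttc
Hbb-bs: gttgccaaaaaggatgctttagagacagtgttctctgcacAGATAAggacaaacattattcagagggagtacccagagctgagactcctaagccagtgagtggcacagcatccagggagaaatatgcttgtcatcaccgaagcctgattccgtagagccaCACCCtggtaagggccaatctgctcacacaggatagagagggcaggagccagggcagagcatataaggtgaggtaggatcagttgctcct
Hbb-bt has 3 matches to CACCC, with their first bases 140, 104 and 89 bases before the start, and 0 to either GATA form. Hbb-bs has 1 match to CACCC, 90 bases before the start, and AGATAA 210 bases before it. The CACCC nearest the start thus lies at almost the same distance in both copies.

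Both alpha globin genes had the higher mean in HSC, but unlike Hbb-bt they overlapped between the groups and were high in the HSC libraries labelled N5 and DKO. Hba-a2 was at 158 ± 104 CPM in HSC and 60.5 ± 16.8 CPM in MPP, and Hba-a1 at 124 ± 72.8 and 50.5 ± 14.3 CPM (SD, n = 4). All 4 adult globin genes had a positive log2 difference (list median 1.15), with 2 at an unadjusted p under 0.05 and 0 called by edgeR. The embryonic genes Hbb-y, Hbb-bh1 and Hba-x were at 0 counts in all 8 libraries. The summed globin level was 246 to 858 CPM in HSC and 156 to 271 CPM in MPP. Alas2 and Slc4a1, markers of later erythroid cells, were each at or near 0 in 5 of the 8 libraries. Alas2, the erythroid enzyme that starts haem synthesis, was at 0 in 5 libraries and at 30.3, 12.4 and 1.56 CPM in HSC labelled DKO and MPP labelled IFNAR and DKO. Slc4a1, the anion exchanger of the red cell membrane, was at 0.174, 0, 13.3 and 0 CPM in HSC and at 9.13, 0, 0 and 11.8 CPM in MPP. The part of globin RNA from other cells in these levels was not tested.

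Among the carbonic anhydrases, which interconvert carbon dioxide and bicarbonate, Car2 and Car1 went in opposite directions. Car2, the widely expressed enzyme that is also abundant in red cells, was at 1521, 1166, 1333 and 1164 CPM in HSC. In MPP it was at 768, 562, 689 and 589 CPM. The groups were far apart, and the fold was nearly constant: 1.98, 2.08, 1.93 and 1.98 within the 4 labels. The means were 1296 ± 169.8 and 652 ± 95.02 CPM (SD, n = 4), a 1.99-fold difference. The log2 difference was 0.99 with an SE of 0.088 (adjusted p = 0.0703, edgeR), just short of the threshold, while limma-voom gave 0.99 (adjusted p = 0.0176). DESeq2 gave 1.02 (adjusted p = 1.41e-77).

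Car1, the erythroid isozyme and an early marker of committed erythroid progenitors, was at 9.97, 8.87, 0 and 9.12 CPM in HSC and at 80.1, 46.0, 219 and 100 CPM in MPP. Every MPP library was above every HSC library, by 5.19 to 10.97-fold in the 3 labels with a count in both. The means were 6.99 ± 4.68 and 111 ± 75.1 CPM (SD, n = 4), 15.9-fold lower in HSC. The edgeR log2 difference was -3.96 with an SE of 1.83 (adjusted p = 0.570), and DESeq2 gave -3.94 (adjusted p = 0.112). Unlike the globin pair, Car1 and Car2 shared 0 windows of 50 bases. Of 16 carbonic anhydrase genes in the table, 7 were measured, 2 with a positive and 5 with a negative log2 difference, and 0 were called by edgeR (2 at an unadjusted p under 0.05). Car9 was at 16.3 ± 14.1 CPM in HSC and 30.4 ± 14.0 CPM in MPP, and Car12 at 12.7 ± 15.0 and 11.3 ± 14.3 CPM, with a log2 difference of -1.69, opposite in sign to its means. Car3, Car5b and Car13 were measured below the mean of 10 CPM used for naming and are given here after their values were seen. Car13 was at 0 in 3 HSC libraries, with means of 0.0217 and 13.1 CPM and no overlap (log2 difference -10.1, adjusted p = 0.228, edgeR), while Car3 (6.52 and 5.39 CPM) and Car5b (4.70 and 2.29 CPM) overlapped. Car7 and Car15 had counts in 1 MPP library each (0.0566 and 0.849 CPM). Car4, Car5a, Car6, Car8, Car10, Car11 and Car14 were at 0 counts in all libraries.

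Gypc encodes glycophorin C, which ties the membrane skeleton to the cell surface in red cells and is also made in other cells. It was at 148, 82.0, 209 and 217 CPM in HSC, and at 66.9, 59.2, 165 and 108 CPM in MPP. HSC was higher within each of the 4 labels, by 2.21, 1.39, 1.26 and 2.01-fold, but the groups overlapped. The log2 difference was 0.74 with an SE of 0.21 (adjusted p = 0.365, edgeR), and DESeq2 gave 0.77 (adjusted p = 0.00566). Its partner in the membrane, Epb41 (protein 4.1), was at 191 ± 44.4 CPM in HSC and 89.7 ± 37.3 CPM in MPP, with no overlap. Icam4, an erythroid adhesion protein, was at 19.8 ± 6.62 and 7.95 ± 4.16 CPM, Aqp1, the water channel, at 40.6 ± 38.5 and 11.3 ± 5.47 CPM, and Xk at 26.3 ± 21.1 and 20.9 ± 9.22 CPM. Of 19 membrane and surface genes, 6 were measured, 5 with a positive and 1 with a negative log2 difference (median 0.71), and 0 were called by edgeR (3 at an unadjusted p under 0.05).

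Genes of haem and iron handling were evenly divided, 9 with a positive and 8 with a negative difference of 17 measured, and a median log2 difference of 0.01. None was called by edgeR, and the 3 with an unadjusted p under 0.05, Tfr2, Ftl1 and Blvrb, were all higher in HSC. Tfr2, an iron sensor of erythroid cells and liver, was at 284 ± 69.0 CPM in HSC and 119.9 ± 15.5 CPM in MPP (SD, n = 4), with no overlap (adjusted p = 0.143, edgeR). Ftl1, the ferritin light chain that stores iron, was at 1856 ± 167 and 1279 ± 77.3 CPM, also with no overlap (adjusted p = 0.244, edgeR). These values of Tfr2 and Ftl1 were chosen after they were seen. Tfrc, the transferrin receptor that brings iron into dividing cells, was at 5.97 ± 10.5 CPM in HSC and 43.1 ± 9.97 CPM in MPP (SD, n = 4), with no overlap. Steap3, which reduces that iron, was at 9.80 ± 12.2 and 46.0 ± 7.94 CPM, also with no overlap, and Abcb10, a mitochondrial transporter of erythroid cells, at 20.2 ± 15.6 and 45.5 ± 18.7 CPM. Blvrb, a reductase of haem breakdown, was at 57.5 ± 17.1 and 23.6 ± 10.99 CPM. Of 10 measured erythroid progenitor genes, 3 had a positive and 7 a negative edgeR log2 difference (median -0.85), with 0 called by edgeR and 2 at an unadjusted p under 0.05. For Mfsd2b (7.58 and 6.51 CPM in HSC and MPP), Smim1 (8.55 and 3.07 CPM) and Pklr (6.38 and 0.599 CPM), each at 0 in at least 1 library of both cell types, the negative log2 difference was opposite in sign to the means. Epor, the erythropoietin receptor, was at 11.5 ± 8.45 CPM in HSC and 11.8 ± 10.6 CPM in MPP, and Hemgn at 84.1 ± 28.3 and 65.0 ± 33.7 CPM.

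**Figure D2:**
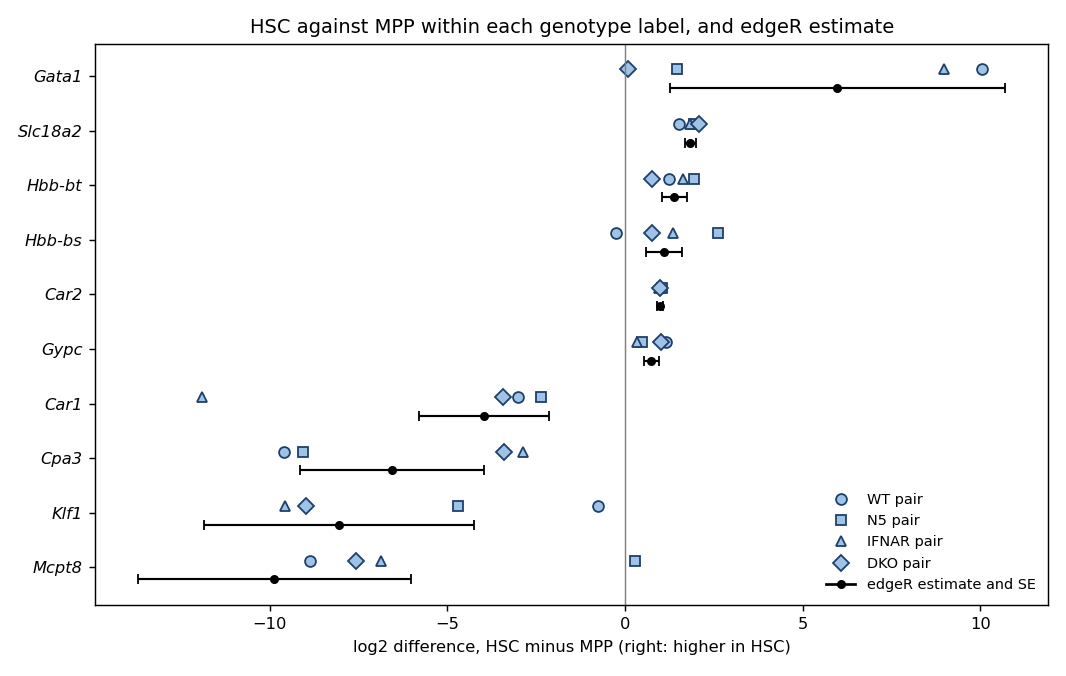
Log2 difference between HSC and MPP (horizontal axis) for each of the 10 genes (vertical axis). Open shapes are the difference within each genotype label, from CPM with a prior count of 2. Black points are the edgeR estimate, with an SE derived from the F statistic of the test. The Car2 shapes coincide near 0.99, while Gata1 and Klf1 span several log2 units.

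The proteases Cpa3 and Mcpt8 had the higher mean in MPP, without overlap for Cpa3 alone. Cpa3, the mast cell carboxypeptidase that is also present in basophils and their progenitors, was at 0, 0, 15.5 and 8.09 CPM in HSC. In MPP it was at 43.9, 30.2, 115 and 86.1 CPM. Every MPP library was above every HSC library, and the means were 5.89 ± 7.43 CPM in HSC and 68.7 ± 38.8 CPM in MPP (SD, n = 4), 11.7-fold lower in HSC. The edgeR log2 difference was -6.56 with an SE of 2.59 (adjusted p = 0.495), and DESeq2 gave -7.25 (adjusted p = 3.33e-05).

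Mcpt8, a protease that marks basophils, was at 0, 12.7, 0 and 0 CPM in HSC and at 26.2, 10.5, 6.63 and 10.7 CPM in MPP. A single HSC library, labelled N5, carried 389 counts, and the other HSC libraries had none. That library also lay above 3 of the 4 MPP libraries, so the groups overlapped. The edgeR log2 difference was -9.87 with an SE of 3.83 (adjusted p = 0.488), and DESeq2 gave -10.2 (adjusted p = 4.81e-05). Prss34, another basophil protease, was at 28.0 CPM in the same HSC library, at 0 in the other HSC libraries, and at 5.92, 0, 0 and 12.1 CPM in MPP. Cpa3 had 0 counts in that HSC library. Of 12 proteases on the list, Cpa3 and Mcpt8 were the 2 measured, and Mcpt1, Mcpt2, Mcpt4, Cma2, Tpsb2, Tpsab1 and Tpsg1 had 0 counts in all 8 libraries. The summed protease level was 0 to 40.7 CPM in HSC and 45.5 to 127 CPM in MPP.

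Slc18a2 encodes the vesicular transporter that loads histamine and serotonin into granules of mast cells, basophils and platelets. It was at 225, 271, 311 and 296 CPM in HSC, and at 79.1, 70.4, 87.1 and 70.4 CPM in MPP. The groups were far apart, with folds of 2.84, 3.85, 3.57 and 4.21 within the 4 labels. The means were 276 ± 37.8 and 76.8 ± 8.04 CPM (SD, n = 4), a 3.59-fold difference opposite in direction to Cpa3. The log2 difference was 1.84 with an SE of 0.16 (adjusted p = 0.0703, edgeR), limma-voom gave 1.85 (adjusted p = 0.0209), and DESeq2 gave 1.87 (adjusted p = 1.57e-29). Hdc, the enzyme that makes histamine, lay on the side of Cpa3: it was at 0.486 ± 0.971 CPM in HSC and 46.9 ± 15.7 CPM in MPP, with 3 HSC libraries at 0.

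The upstream windows of Cpa3 (GRCm38.p6, chr3:20242182-20242431, minus strand) and Slc18a2 (chr19:59260628-59260877, plus strand) are shown because these genes of the same lines differed in opposite directions. Capitals mark matches as above.
Cpa3: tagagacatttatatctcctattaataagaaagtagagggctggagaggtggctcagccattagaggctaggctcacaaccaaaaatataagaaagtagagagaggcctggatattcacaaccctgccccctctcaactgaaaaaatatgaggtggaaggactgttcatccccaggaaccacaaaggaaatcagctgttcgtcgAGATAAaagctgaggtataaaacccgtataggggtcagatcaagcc
Slc18a2: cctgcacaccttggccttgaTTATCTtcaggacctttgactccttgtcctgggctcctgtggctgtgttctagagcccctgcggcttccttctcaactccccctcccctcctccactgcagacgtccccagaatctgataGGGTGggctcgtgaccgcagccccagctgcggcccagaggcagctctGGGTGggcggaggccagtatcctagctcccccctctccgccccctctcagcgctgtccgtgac
Cpa3 has AGATAA with its first base 46 bases before the start and 0 matches to CACCC. Slc18a2 has AGATAA on the reverse strand, with its outer base 230 bases before the start, and CACCC on the reverse strand 110 and 63 bases before it. The window of Mcpt8 has 0 matches of either kind.

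Receptors and signalling genes of mast cells and basophils lay on both sides. Of 13 measured genes for amines, lipids and receptors, 5 had a positive and 8 a negative log2 difference (median -0.97), with 0 called by edgeR and 5 at an unadjusted p under 0.05. Lat2, an adaptor of the IgE receptor, was at 4.66 ± 9.32 CPM in HSC and 88.8 ± 34.4 CPM in MPP, and Csf2rb, the shared chain of the IL-3, IL-5 and GM-CSF receptors, at 12.2 ± 13.7 and 65.2 ± 21.2 CPM. Both had no overlap. Kit, the stem cell factor receptor and a marker of the sorting gate, was higher in HSC with no overlap, at 1125 ± 33.3 and 892.5 ± 97.3 CPM. Csf2rb2, a closely related copy of Csf2rb whose reads may be split with it, was at 29.7 ± 26.5 and 9.01 ± 7.92 CPM, higher in HSC within each of the 4 labels, and was picked after its values were seen. Il3ra, which pairs with Csf2rb for IL-3, was at 7.23 ± 7.58 and 20.2 ± 11.3 CPM. The chains of the IgE receptor itself were near the limit: Ms4a2 was at 22.7 and 12.8 CPM and Fcer1a at 5.04 and 5.83 CPM in the MPP libraries labelled IFNAR and DKO, and both were at 0 counts in the other 6 libraries. Of the transcription factors, 6 of 7 measured, Gata1 among them, had a positive log2 difference (median 0.66), with 0 called by edgeR and 3 at an unadjusted p under 0.05. Gata2, which acts before Gata1 in early progenitors, was at 418 ± 112 CPM in HSC and 133 ± 38.2 CPM in MPP, with no overlap. Runx1 was at 106 ± 35.6 and 58.5 ± 22.8 CPM and Stat5a at 238 ± 91.7 and 146 ± 41.6 CPM, both higher in HSC within each of the 4 labels. Nfil3 was at 15.6 ± 21.5 and 9.53 ± 12.8 CPM, with a log2 difference of -0.87, opposite in sign to its means.

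Of the other lines that use GATA1, megakaryocyte markers mostly had positive log2 differences and eosinophil markers negative ones. Of 15 megakaryocyte markers, 10 were measured and 9 had a positive log2 difference (median 2.74). Their summed level was 1452 to 2177 CPM in HSC and 285 to 467 CPM in MPP, Gp6 was at 0 in all libraries, 0 were called by edgeR, and 8 had an unadjusted p under 0.05. Pf4, a platelet chemokine, was at 80.8 ± 34.9 CPM in HSC and 3.35 ± 2.08 CPM in MPP, and Vwf at 154 ± 97.2 and 1.25 ± 1.45 CPM. Cavin2 was at 104 ± 46.8 CPM in HSC and at 0 in all 4 MPP libraries. Against the mean of the floors of 3 counts it was 1116-fold higher in HSC. This value is no bound, because the floors cover counting error only. Gp1ba, a platelet receptor chain, overlapped at 20.7 ± 15.2 and 10.3 ± 12.3 CPM. Of 10 eosinophil markers, 5 were measured and all 5 had a negative log2 difference (median -2.78), with 0 called and 2 at an unadjusted p under 0.05. Their summed level was 2.12 to 21.3 CPM in HSC and 32.7 to 110 CPM in MPP, and Il5ra was at 0 in all libraries. Siglecf was at 0 in all 4 HSC libraries and at 26.4 ± 22.2 CPM in MPP. Against the mean of the floors of 3 counts it was 325-fold lower in HSC, which is likewise no bound. Prg2, the eosinophil major basic protein, was at 4.82 ± 4.36 and 19.1 ± 0.955 CPM. The neutrophil markers summed to 696 to 826 CPM in HSC and 1195 to 3855 CPM in MPP (9 of 9 measured, 5 with a positive and 4 with a negative log2 difference), and the monocyte and macrophage markers to 3.08 to 47.0 and 111 to 309 CPM (6 of 9 measured, all with a negative one). The part of these lines in the levels of Gata1, Slc18a2, Cpa3, Car1 and Klf1 was not tested.

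**Figure D3:**
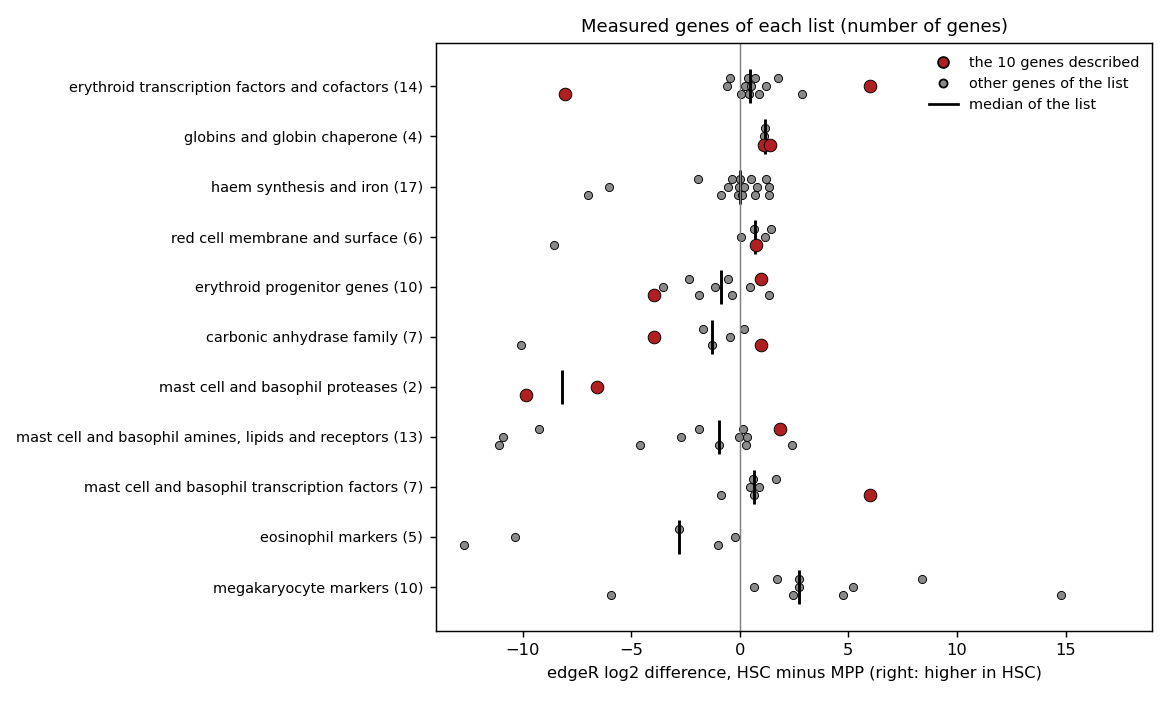
edgeR log2 difference between HSC and MPP (horizontal axis) for every measured gene of 11 lists (vertical axis, number of measured genes in brackets). Red points are the 10 genes described, grey points the other genes of a list, and black bars the list medians; a gene on more than 1 list appears in each.

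Levels can be ordered between genes only per length of transcript, here CPM per kilobase of the longest coding transcript in GENCODE M21. In HSC, Car2 stood first at 724.8 ± 94.97 CPM per kilobase, above Hbb-bs (233 ± 133), Hbb-bt (114 ± 27.9), Gypc (75.1 ± 28.7) and Slc18a2 (72.8 ± 9.98). A gap separated these 5 from Gata1 (15.5 ± 11.2), Car1 (5.85 ± 3.92), Cpa3 (4.06 ± 5.13), Mcpt8 (3.79 ± 7.59) and Klf1 (2.09 ± 4.15). In HSC the ranges of all neighbours in this order overlapped except at Car2 against Hbb-bs and at Slc18a2 against Gata1. In MPP, Car2 was again first at 365 ± 53.1 CPM per kilobase, followed by Hbb-bs (96.4 ± 24.7), Car1 (93.2 ± 62.9), Cpa3 (47.4 ± 26.7), Gypc (45.8 ± 22.3) and Hbb-bt (44.7 ± 16.4). Slc18a2 (20.3 ± 2.12), Mcpt8 (16.2 ± 10.4), Klf1 (15.7 ± 10.8) and Gata1 (2.40 ± 3.08) came last. Here the ranges of neighbours did not overlap at Car2 against Hbb-bs and at Hbb-bt against Slc18a2. Car1 and Cpa3 thus stood among the upper genes in MPP and among the low ones in HSC, and Gata1 was last in MPP.

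The genotype labels ask whether loss of NFAT5, which turns on genes under osmotic stress, or of IFNAR1, through which cells sense type I interferons, goes with a change in these genes. For each factor there are 4 pairs of libraries that differ in the label of that gene. Since the label of the IFNAR donors does not mention Cre, the pairs of WT with IFNAR and of IFNAR with DKO may also differ in Vav-Cre, and in those pairs the effects cannot be told apart. For Nfat5 loss, edgeR called 0 of the 10 genes and 0 of all genes (0.00%). At an unadjusted p under 0.05 it gave 1 of the 10, against 2.79% of all genes. DESeq2 called 1 of the 10, against 1.37%, and limma-voom 0 of the 10, against 0.00%. Hbb-bt was higher and Car2 lower in 4 of 4 pairs, which 5.79% and 5.35% of all genes were. The median log2 difference was -0.10 for the 10 genes and 0.02 for all genes.

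Car2 was the gene of this set that DESeq2 called for Nfat5 loss. Its mean was 869.9 ± 340.5 CPM in the 4 libraries labelled N5 or DKO and 1078 ± 411.6 CPM in those labelled WT or IFNAR (SD, n = 4, both over HSC and MPP). In HSC the labelled-loss libraries were at 1166 and 1164 CPM against 1521 and 1333 CPM. In MPP they were at 562 and 589 CPM against 768 and 689 CPM. Within each cell type they did not overlap, and the share of all genes separated in this way was not counted. The log2 difference was -0.31 with an SE of 0.089 (adjusted p = 1, edgeR) and -0.32 with DESeq2 (adjusted p = 0.00709). Hbb-bt was at 66.3 ± 35.4 CPM with the loss label and 45.6 ± 24.2 CPM without it. In MPP 1 of its pairs differed by very little, 27.9 against 27.6 CPM, and the log2 difference was 0.56 with an SE of 0.33 (adjusted p = 1, edgeR). The other 8 genes did not differ one way in all 4 pairs.

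For Ifnar1 loss, edgeR called 0 of the 10 genes and 0 of all genes (0.00%). At an unadjusted p under 0.05 it gave 1 of the 10, against 3.28% of all genes. DESeq2 called 2 of the 10, against 1.92%, and limma-voom 0 of the 10, against 0.00824%. Gypc, Cpa3 and Slc18a2 were higher in 4 of 4 pairs, as were 5.90% of all genes, and 0 of the 10 genes were lower in 4 of 4, as were 6.16% of all genes. The median log2 difference was 0.06 for the 10 genes and -0.01 for all genes.

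Gypc was at 174.6 ± 49.95 CPM in the libraries labelled IFNAR or DKO and at 89.0 ± 40.3 CPM in those labelled WT or N5 (SD, n = 4). In HSC it was at 209 and 217 CPM against 148 and 82.0 CPM, and in MPP at 165 and 108 CPM against 66.9 and 59.2 CPM. Within each cell type the libraries with the loss label were higher than both without it. The share of all genes separated in this way was not counted. The log2 difference was 1.02 with an SE of 0.20 (adjusted p = 1, edgeR) and 1.02 with DESeq2 (adjusted p = 0.000556). Cpa3 was at 15.5 and 8.09 CPM against 0 and 0 CPM in HSC, and at 115 and 86.1 CPM against 43.9 and 30.2 CPM in MPP, again with no overlap within a cell type. Its log2 difference was 4.81 with an SE of 2.35 (adjusted p = 1, edgeR) and 5.44 with DESeq2 (adjusted p = 0.0109). For Slc18a2 the difference was small, a log2 value of 0.18 with an SE of 0.15 (adjusted p = 1, edgeR), and 1 MPP pair was level at 70.4 CPM.

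**Figure D4:**
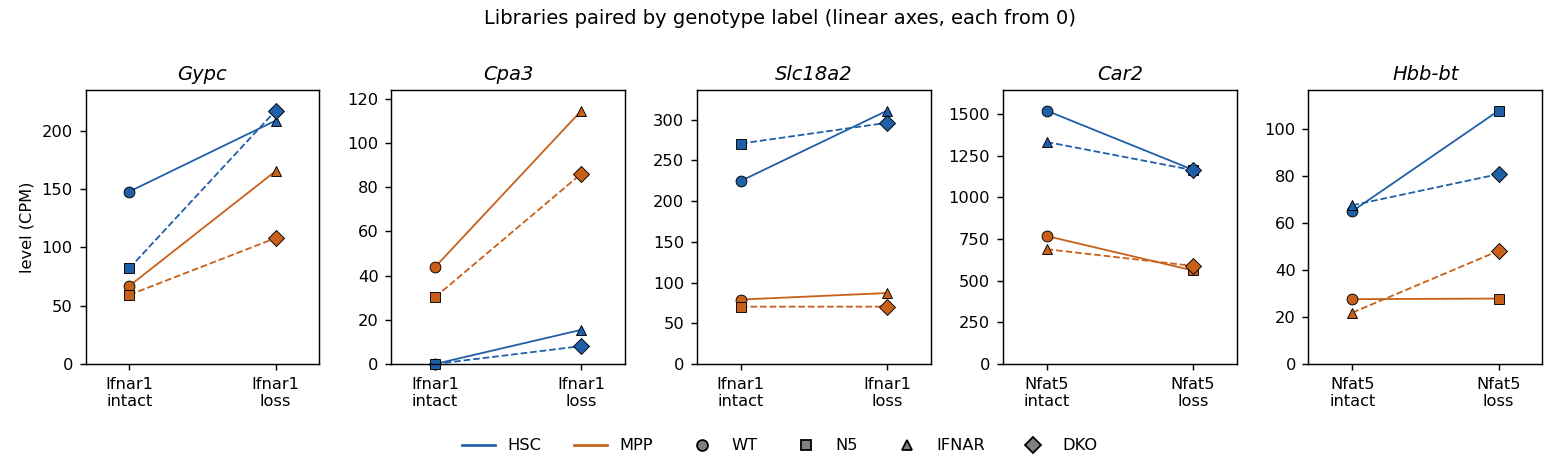
Level in CPM (vertical axis, linear, from 0) of the 5 genes that differed one way in all 4 pairs, with libraries joined that differ in the Ifnar1 or the Nfat5 label (horizontal axis); lines to the library labelled IFNAR may also cross a difference in Vav-Cre. Blue is HSC, orange MPP, and shapes give the label; solid lines join to the library labelled WT. Gypc and Cpa3 separate within each cell type, while 1 MPP line of Slc18a2 and 1 of Hbb-bt are nearly flat.

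The 4 MPP libraries had the same order for Car1, Cpa3, Klf1 and Gypc, but not for the other genes. This order was picked from the values themselves, and the share of all genes that follow it was not counted. Car1 was at 46.0, 80.1, 100 and 219 CPM, Cpa3 at 30.2, 43.9, 86.1 and 115 CPM, and Klf1 at 3.09, 21.5, 28.5 and 42.9 CPM, each in the order N5, WT, DKO and IFNAR. Some sums of markers followed this order too. The summed neutrophil markers were at 1195, 2553, 3316 and 3855 CPM, and the summed monocyte and macrophage markers at 111, 233, 262 and 309 CPM. The summed MPP markers were at 6812, 9432, 10259 and 11750 CPM. Other sums did not follow it. In the same order of labels, the megakaryocyte markers were at 467, 308, 397 and 285 CPM. The eosinophil markers were at 32.7, 71.7, 56.2 and 110 CPM, and the B cell markers at 67.6, 87.8, 78.1 and 91.2 CPM. With 4 libraries no relation was tested, and the part of these markers in the genotype differences of Cpa3, Car1 and Klf1 was not tested. Gypc (59.2, 66.9, 108 and 165 CPM) was in the same order. Mcpt8 and Hbb-bt were instead lowest in the library labelled IFNAR, and Gata1 was at 0 in those labelled WT and IFNAR. In the order N5, WT, DKO and IFNAR, Car2 was at 562, 768, 589 and 689 CPM. Hbb-bs was in that order at 42.2, 66.3, 78.5 and 55.1 CPM, and Slc18a2 at 70.4, 79.1, 70.4 and 87.1 CPM.

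Whether a genotype difference itself differed between HSC and MPP was tested with an interaction term. For Nfat5 loss, edgeR called 0 of the 10 genes and 0 of all genes (0.00%), limma-voom 0 and 0 (0.00%), and DESeq2 1 of the 10 against 4.82%. An unadjusted p under 0.05 was given to 1 of the 10 and to 4.42% of all genes. That gene was Gata1, at 16.4 and 13.0 CPM with the loss label against 59.9 and 28.4 CPM in HSC, and at 5.94 and 12.3 CPM against 0 and 0 CPM in MPP. It was thus lower with the label in HSC and higher in MPP. The interaction was -12.9 on the log2 scale with an SE of 2.31 (adjusted p = 1, edgeR), and -12.3 with DESeq2 (adjusted p = 5.34e-07).

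For Ifnar1 loss, edgeR called 0 of the 10 genes and 0 of all genes (0.00%), limma-voom 0 and 0 (0.00%), and DESeq2 2 of the 10 against 5.00%. An unadjusted p under 0.05 was given to 2 of the 10 and to 4.82% of all genes. Cpa3 had an interaction of 10.2 on the log2 scale with an SE of 1.33 (adjusted p = 0.748, edgeR), and DESeq2 gave 9.51 (adjusted p = 5.28e-07). Its levels were higher with the loss label in both cell types, and in HSC both libraries without that label were at 0. Klf1 had an interaction of -12.2 with an SE of 3.603 (adjusted p = 0.999, edgeR), and DESeq2 gave -11.7 (adjusted p = 0.00285). Its HSC levels were 12.7 and 0.0652 CPM without the loss label and 0 and 0 CPM with it, while in MPP they were 21.5 and 3.09 against 42.9 and 28.5 CPM. All 3 interactions rest on libraries at or near 0 counts, where a log2 value depends on the prior count and is no bound. Both factors were tested on the same 8 libraries, so these comparisons share samples.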

How the data were processed

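Polyadenylated RNA of 8 pools of sorted mouse cells was amplified with Smart-Seq2, which marks neither molecules nor strand, per the labels' protocols. STAR 2.7.8a, RSEM 1.3.0 and GRCm39 are named in the submitters' processing notes; their annotation release, read filters, strand setting and rounding are not stated in any source used here. The authors deposited whole-number counts per gene with no normalization. Counting was taken as unstranded, so antisense and overlapping genes, and near-identical copies such as the globin genes, may share reads.

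Cell type and genotype came from the labels, with columns matched by name. Counts were tested with edgeR 4.0.16 in R 4.3.3 (glmQLFit and glmQLFTest, installed default, TMM factors, filterByExpr by cell type, Benjamini-Hochberg over 12132 genes at 0.05). The contrast of HSC with MPP blocked on the genotype label (common dispersion 1.09, 3 residual degrees of freedom), and each genotype factor with cell type and the other factor as terms (4 residual degrees of freedom, common dispersion 1.14). The interactions had 3 residual degrees of freedom. Because no group was replicated, the spread is estimated from interactions not in each model, and p-values measure only the spread between these libraries. Levels are CPM after TMM scaling, and log2 differences within a label use a prior count of 2.

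DESeq2 1.42.0, limma-voom (limma 3.58.1), DESeq2 size factors, testing without a filter, requiring 10 CPM in 4 libraries, bias-adjusted quasi-likelihood, fits without a block or term, each cell type alone, leaving out each library, and summing Hbb-bt with Hbb-bs were the alternatives. The fits were also run on simulated counts, with pass limits set only at a dispersion far below those of these data. Passing them does not show how the fits perform at the dispersion found here.

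The 10 genes, the 19 gene lists and the tests were chosen with earlier results of these data known. The naming rule took from each list up to 4 measured genes with a mean of at least 10 CPM and the largest absolute log2 difference between HSC and MPP, or the highest gene where none qualified. Neutrophil, monocyte, lymphoid, stromal, HSC and MPP markers are given as sums or counts only, and other genes outside the rule were chosen after their values were seen. Alas2, Slc4a1, Ms4a2 and Fcer1a are named as fixed cell type markers, and 1 further marker is not reported here. RefSeq upstream windows of 250 bases (GRCm38.p6) and GENCODE M21 transcripts of the same earlier build were used for sequences and lengths only.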

Additional observations from a re-analysis of the deposited data

Results flagged for a closer look

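In each group of 4 libraries of a cell type, the gap of the highest or lowest log2 level to its nearest neighbour was set against the group's range. For normally spread values chance flags about 1 in 20 groups. For the 10 genes 20 groups were examined, and 3 were flagged, all in HSC. All 3 hold libraries at 0 counts, where the log2 level is set by the prior count, so that chance rate does not apply to them. For Klf1 the gap was 0.859 of the range, set by the library labelled WT at 12.7 CPM against 0.0652, 0 and 0 CPM. For Car1 it was 0.978, set by the library labelled IFNAR at 0 CPM against 8.87 to 9.97 CPM in the other 3. For Mcpt8 it was 1 (the whole range), set by the library labelled N5 at 12.7 CPM against 0 counts in the other 3. In that HSC library Prss34, which was at 0 in the other HSC libraries, was at 28.0 CPM. Cpa3 had 0 counts in the same library, and the IgE receptor chains Ms4a2 and Fcer1a had 0 counts in all 4 HSC libraries. Without the flagged libraries the log2 differences between HSC and MPP were -10.5 for Klf1, -2.94 for Car1 and -11.8 for Mcpt8 (edgeR). The sign was the same as with them, but it was not free to change. For these genes the difference within each remaining label was already negative.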

How the results depend on the processing

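For HSC against MPP, none of the 10 genes reversed its log2 difference under any of the 16 settings run, but its size ranged from 2.42 to 10.2 for Gata1, -10.6 to -2.91 for Klf1, -9.47 to -3.54 for Cpa3 and -11.8 to -2.09 for Mcpt8, against 0.97 to 1.02 for Car2 and 1.76 to 1.95 for Slc18a2. The number of calls did depend on the test. edgeR called 2 genes, DESeq2 1880, limma-voom 156, the stricter filter 23, the bias-adjusted quasi-likelihood 107 and the fit without a genotype block 207. Leaving out any 1 of the 8 libraries gave 0 calls. In those fits the partner of the missing library stood alone in its genotype block, so the whole pair dropped out of the contrast. Slc18a2 was thus at 1.95 both without HSC labelled WT and without MPP labelled WT. The 16 settings therefore hold near-duplicates and are not separate checks. All of the 10 genes except Hbb-bs and Mcpt8 had the same sign within every label. For these genes the sign was not free to change when a pair dropped out. Of the 10 genes, edgeR called 0, DESeq2 8, limma-voom 2, the stricter filter 2, the bias-adjusted fit 4 and the fit without a block 2. Car2 and Slc18a2 were the 2 genes in each case, with Car1 and Cpa3 added by the bias-adjusted fit; DESeq2 missed Hbb-bs and Car1. For Nfat5 loss DESeq2 called 166 genes and 1 of the 10, against 0 and 0. For Ifnar1 loss DESeq2 called 233 genes and 2 of the 10, and limma-voom and the bias-adjusted fit 1 gene each, against 0. For the interactions DESeq2 called 585 (Nfat5) and 607 (Ifnar1) genes against 0. The cause of these differences was not tested. The labels give no replicate numbers, so libraries were paired by genotype label alone.

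Several genotype differences changed sign. For Nfat5 loss, leaving out 1 library gave Gata1 -0.055 to 8.16 (3.68 with all), Car1 -0.81 to 1.17 (-0.13), Cpa3 -1.80 to 0.55 (-0.69), Mcpt8 -0.22 to 6.15 (3.30) and Slc18a2 -0.18 to 0.016 (-0.072). Car1 reversed without HSC labelled WT (0.54), MPP labelled N5 (0.57) or MPP labelled IFNAR (1.17). limma-voom gave Mcpt8 -0.22 and Slc18a2 0.0020. The bias-adjusted fit gave Gata1 -0.78, HSC alone Gata1 -1.50 and Slc18a2 0.10, and MPP alone Hbb-bs -0.056 (0.51 with all) and Mcpt8 -0.30. For Ifnar1 loss, leaving out 1 library gave Gata1 -2.26 to 2.20 (-0.02), Klf1 -6.85 to 1.39 (-1.81), Hbb-bt -0.19 to 0.14 (0.03), Hbb-bs -0.19 to 0.68 (0.09) and Car1 -1.09 to 0.93 (0.18). limma-voom gave Klf1 0.54 and Hbb-bt -0.086, the bias-adjusted fit Klf1 0.79 and Hbb-bt -0.037, the fit without an Nfat5 term Gata1 0.080, HSC alone Hbb-bt -0.18 and MPP alone Klf1 2.09. Car2 for Nfat5 loss (-0.35 to -0.27 over 18 settings) and Gypc for Ifnar1 loss (0.91 to 1.16 over 18) kept their sign, and Cpa3 for Ifnar1 loss did so from 1.45 to 7.89 over 17. Genes near 0 CPM in several libraries, among them Gata1, Klf1, Cpa3 and Mcpt8, carry log2 values whose size is not fixed at this depth.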

Other observations

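The summed alpha globin genes Hba-a1 and Hba-a2 were at 126, 492, 149 and 362 CPM in HSC (in the label order WT, N5, IFNAR, DKO) and at 130, 91.0, 79.3 and 144 CPM in MPP. The ratio of summed beta to summed alpha globin was 0.957, 0.743, 1.39 and 0.594 in HSC and 0.724, 0.770, 0.971 and 0.881 in MPP. The HSC libraries labelled IFNAR and DKO thus bounded the range of all 8, with similar beta globin sums of 207 and 215 CPM. Both alpha genes were highest in the HSC libraries labelled N5 (202 and 291 CPM for Hba-a1 and Hba-a2) and DKO (169.9 and 192 CPM), and the other 6 libraries were at 38.2 to 66.7 CPM for Hba-a1 and 41.2 to 82.2 CPM for Hba-a2.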
